A study of Mus musculus with 24 samples.

Results

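The response of wild-type mouse myoblasts to bone morphogenetic protein 4 (BMP4) was measured as the difference between 3 arrays of BMP4-treated cells and 3 arrays of untreated cells, chosen by their titles from 24 arrays in the series. It was described across 19938 genes, each read by 1 probe set with a single gene assigned. The treated cells were wild-type H-2Kb-tsA58 myoblasts that were serum deprived for 4 h and then given 25 ng/ml BMP4 for 8 h. Their reference was the same line untreated. Both kinds of culture were kept at 33 °C with interferon-γ and fetal bovine serum. The line carries a temperature-sensitive large T antigen, and its cells keep dividing under these conditions. The labels give serum deprivation for treated myoblasts and do not say whether the untreated ones had it, so an effect of serum and an effect of BMP4 cannot be told apart in these 6 arrays.

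Other cultures of the series were used where a difference of responses was tested. These were MuSK-null myoblasts, treated after 4 h without serum or untreated, and wild-type myotubes, treated without serum deprivation or untreated, with 3 arrays a group. MuSK is a muscle receptor kinase that agrin activates, through Lrp4, at the nerve-muscle junction, and the study asked whether it shapes BMP responses. The myotubes had been held at 37 °C in horse serum for 3 days. Each genotype is 1 immortalised line, so genotype and line cannot be told apart. The labels call the arrays of a group biological replicates without saying that they came from separate cultures, so p-values here cover only the variation among these arrays, which may be technical.

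BMP ligands bind pairs of type I and type II receptor kinases, which phosphorylate Smad1, Smad5 and Smad9. These enter the nucleus with Smad4 and switch on target genes, among them the Id genes and the inhibitory Smads that close a feedback loop. In muscle precursors BMP signalling is known for holding back differentiation, and BMP ligands can turn C2C12 myoblasts toward an osteoblast fate.

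Values are log2 probe set signals as deposited, so 1 unit is a doubling, and the 6 arrays had medians of 7.41 to 7.44. The file carries no detection call, and a change in a weakly expressed gene may be understated. The median spread within a group was 0.094 log2 units (SD). Of the 9 measured myoblast markers Cdh15, Itga7 and Myod1 were lower and Myf5 higher after treatment. Their summed level was 102.23 to 102.68 on the treated arrays and 103.41 to 103.99 on the untreated arrays. The endothelial, macrophage and adipocyte lists held 29 measured markers, with mean levels between 5.10 and 8.41. Of these 1 was called, beside a share of 11.0% of all genes. Of 8 Schwann and neural markers Erbb3 and Tubb3 were lower (-0.69 and -0.62), with a summed level of 59.49 to 59.95 treated and 60.82 to 61.05 untreated. The limma call of Tubb3 was lost without untreated replicate 1 (adjusted p = 0.0774) or treated replicate 3 (adjusted p = 0.072). It was also lost with the 6 arrays alone in the fit (adjusted p = 0.0562). The part of endothelial, macrophage, adipocyte, Schwann and neural cells in the results was not tested. Of 10 fibroblast markers 4 were lower, such as Dcn, and Pdgfra was higher, with a summed level of 84.45 to 85.57 on the treated arrays and 86.90 to 87.47 on the untreated arrays. The part of fibroblast-like cells in the results was not tested, and fewer cells of a type cannot be told apart from less RNA per cell. Treated replicate 3 and untreated replicate 2 belong to a set of 4 myoblast arrays, 1 per myoblast group. Each was picked for the lowest median deviation from its group mean over rows without a gene name. Over the genes their deviations ran together (correlations of 0.42 to 0.54), and picking arrays shifted the same way may favour that. Counts of list members below that moved by over 1.5 times without that set are given both ways.

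In all, 2186 genes were called at a Benjamini-Hochberg adjusted p under 0.05 in limma, which is 11.0% of those tested. Of these 1038 were higher (5.21%) and 1148 lower (5.76%) after BMP4. Most changes were small, with a median size of 0.403 log2 units among called genes. Rises reached further than falls: 85 called genes rose and 57 fell by over 1 unit, and 11 rose and 1 fell by over 2 units. The 3 treated and 3 untreated values did not overlap for 4648 genes (23.3%), of which 2156 were called (10.8% of genes tested). Counts of list members and remarks on overlap below stand beside these shares of all genes.

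**Figure D1:**
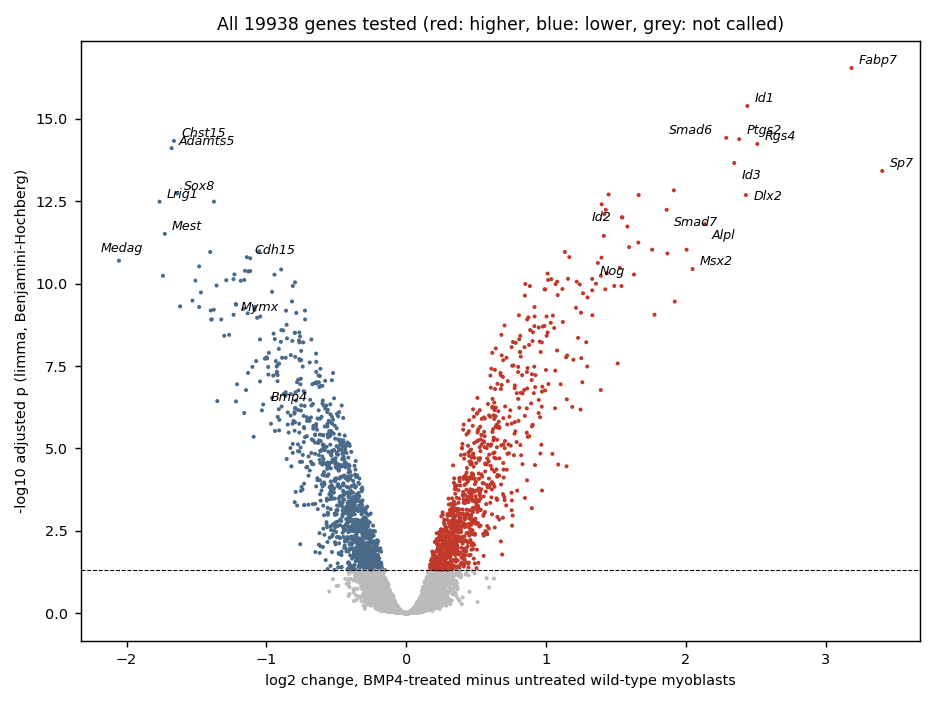
Each point is 1 of 19938 genes, with the log2 change (treated minus untreated wild-type myoblasts) on the x axis and -log10 of the limma adjusted p on the y axis; the dashed line marks 0.05. The 11 genes beyond 2 units on the right include Sp7, Fabp7, Rgs4 and Id1, and Medag alone lies beyond -2 on the left.

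The Id genes and inhibitory Smads were among the sharpest changes. Of 30 measured genes on the list of Id proteins and BMP-responsive transcription factors, 18 were higher and 1 lower, with a median change of 0.546 against -8e-04 over all genes. Id1 (probe set 10477169), whose protein binds basic helix-loop-helix factors and keeps them off DNA, read 11.10, 11.15 and 11.06 on the treated arrays and 8.71, 8.66 and 8.62 on the untreated arrays. That is 5.42-fold higher, a change of 2.44 log2 units (SE 0.07, limma adjusted p = 4.10e-16). The gap between the groups was many times the spread within either. Id3 read 11.58, 11.67 and 11.75 treated, against 9.37, 9.40 and 9.20 untreated. Id2 read 12.14, 12.05 and 12.00 treated, against 10.54, 10.40 and 10.50 untreated. Id4, the dimmest of the family on its probe set, moved least, by 0.75 (SE 0.10). No treated array of any of the 4 genes reached down to an untreated one. Of all genes 23.3% had groups that did not overlap.

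Smad6, an inhibitory Smad that blocks the BMP branch, stood at 11.12, 11.01 and 11.00 on treated arrays and at 8.83, 8.73 and 8.71 on untreated arrays. Smad7, which blocks both the BMP and TGF-beta branches, stood at 10.37, 10.33 and 10.25 treated and at 8.43, 8.47 and 8.47 untreated. Of the Smads that BMP receptors phosphorylate, Smad9 rose by 1.54 (SE 0.08). Smad1 (0.25, adjusted p = 0.227), Smad5 (-0.01, adjusted p = 0.968) and the common partner Smad4 (0.08, adjusted p = 0.484) did not pass the test. Smad3, which carries TGF-beta and activin signals, was lower in every treated array, at 10.82, 10.83 and 10.81 against 11.49, 11.48 and 11.52 untreated. Over the 23 Smads and their intracellular regulators 9 were higher and 3 lower. Skil, a Smad corepressor, rose by 0.95 and Smurf2, a ubiquitin ligase that acts on receptors and Smads, by 0.69. The related zinc-finger repressors Zeb1 and Zeb2 moved apart, Zeb1 by -0.80 (SE 0.06) and Zeb2 by 0.40 (SE 0.05).

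**Figure D2:**
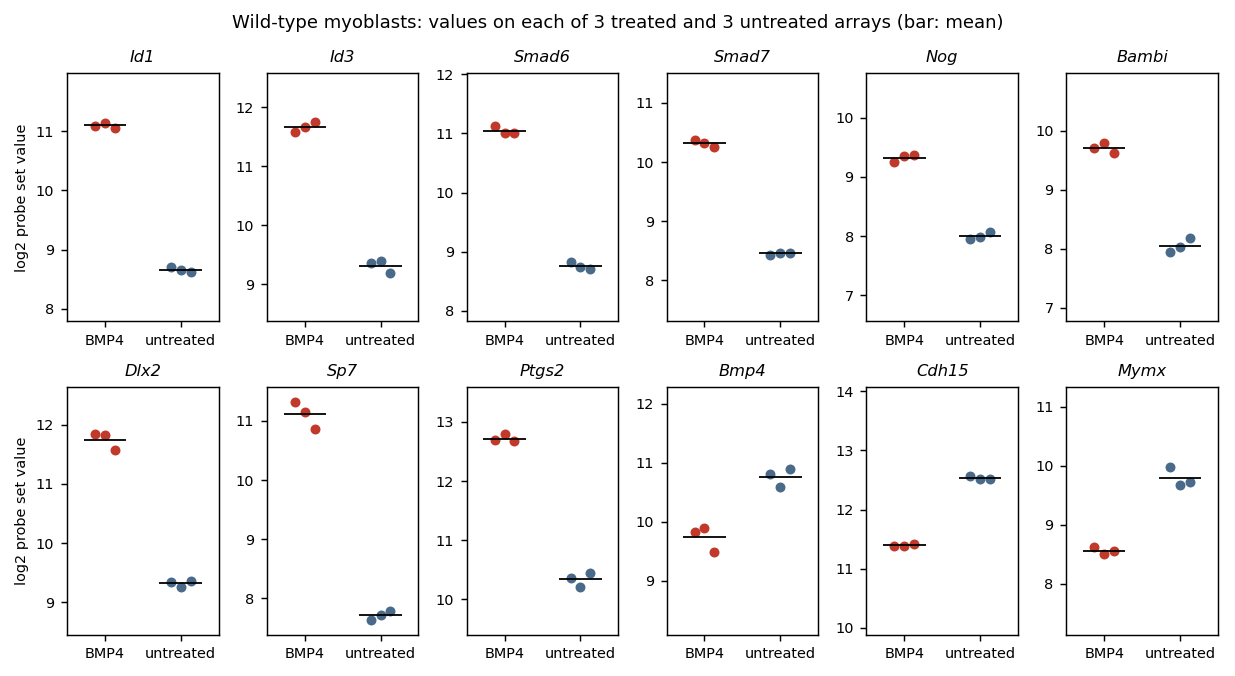
Log2 probe set values of 12 genes, each panel with the 3 treated arrays at the left and the 3 untreated arrays at the right and a bar at the group mean; all panels span the same number of log2 units. Treated and untreated points do not overlap in any panel, as in 23.3% of all genes, and Bmp4, Cdh15 and Mymx are lower after treatment.

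A pair of promoters is printed because each holds letters that Smads are known to bind and belongs to a gene described above. The promoter of Id3 in the table held neither of the 2 motifs. The sequences are from RefSeq (GRCm38.p6), 250 bases before to 50 after the annotated start, on the minus strand. In the Smad6 promoter at chr9:64022010-64022309 the capitals mark GTCTAGAC, the palindrome known for binding Smad3 and Smad4, which begins 4 bases before the start. In the Id2 promoter at chr12:25096043-25096342 the capitals mark GGCGCC, a GC-rich element known for binding BMP-activated Smads, which begins 231 bases before the start.
Smad6: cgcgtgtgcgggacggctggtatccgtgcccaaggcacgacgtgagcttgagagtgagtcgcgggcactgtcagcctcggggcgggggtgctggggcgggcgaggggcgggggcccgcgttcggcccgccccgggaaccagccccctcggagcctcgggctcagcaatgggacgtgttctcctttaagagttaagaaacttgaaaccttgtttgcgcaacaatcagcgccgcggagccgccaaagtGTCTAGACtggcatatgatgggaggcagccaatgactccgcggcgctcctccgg
Id2: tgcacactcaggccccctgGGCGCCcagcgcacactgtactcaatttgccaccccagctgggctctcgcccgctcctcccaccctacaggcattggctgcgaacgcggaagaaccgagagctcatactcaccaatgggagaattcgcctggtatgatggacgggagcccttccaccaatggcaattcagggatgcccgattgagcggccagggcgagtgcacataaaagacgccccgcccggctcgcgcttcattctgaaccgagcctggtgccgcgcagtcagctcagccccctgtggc

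Both motifs read the same on either strand. They were counted by gene, over the tested genes with a 300-base promoter in the table (15614). A match in any promoter of a gene counted once. GTCTAGAC was found for 0.288% of these genes, for 5 of 788 called higher (0.635%) and for 6 of 878 called lower (0.683%). GGCGCC was found for 18.6% of these genes, for 31.0% of those called higher and for 26.0% of those called lower. CANNTG, the E-box letters that myogenic factors read and Id proteins keep free, was found for 71.6% of these genes. It was found for 62.8% of those called higher and for 73.8% of those called lower. For called changes of over 1 log2 unit the shares were 77.0% of 61 genes that rose and 80.6% of 36 that fell. For the same genes GGCGCC was found in 29.5% and 25.0%, and GTCTAGAC in 1 of each. A match describes letters and is no bound site.

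Ligands and their antagonists moved in both directions. Of 24 measured BMP-family ligands 3 were higher and 3 lower. Bmp4 itself fell to 9.83, 9.89 and 9.49 in treated cells, against 10.81, 10.58 and 10.89 in untreated cells (-1.02, SE 0.11, adjusted p = 4.64e-07). The BMP4 given to the cells was protein and adds no transcript. Bmp2, a close relative, read 8.32, 8.22 and 7.99 treated, against 7.17, 6.77 and 7.15 untreated. Inhba, the subunit that forms activin A, was 1.16 higher (SE 0.07), and Inha, the subunit that turns it into inhibin, 0.62 higher. Mstn, which encodes the muscle growth inhibitor myostatin, changed by -0.57 (SE 0.12) on a dim probe set. Among 18 secreted antagonists 5 were higher and 2 lower. Noggin (Nog), which traps BMP ligands outside the cell, read 9.25, 9.35 and 9.37 treated, against 7.94, 7.98 and 8.06 untreated. Crim1, Fst (follistatin, an activin trap) and Grem1 rose by 0.60, 0.49 and 0.48, while Chrd (chordin) fell by 0.59.

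Of 20 receptors and co-receptors 2 were higher and 6 lower; without the array set 4 were higher and 5 lower. Bambi, a receptor-like protein without a kinase that damps the pathway, read 9.71, 9.80 and 9.63 treated, against 7.94, 8.03 and 8.18 untreated. The type I receptor Acvr1 rose by 0.39 (SE 0.06), and Bmpr1a (0.01, adjusted p = 0.976) and Bmpr2 (0.28, adjusted p = 0.0834) missed the threshold. Without the array set Bmpr2 passed it (adjusted p = 0.0152). The 3 repulsive guidance molecule genes, which encode GPI-anchored BMP co-receptors, were all lower. Rgma read 8.07, 8.18 and 8.10 treated, against 9.30, 9.25 and 9.46 untreated. Rgmb changed by -0.89 (SE 0.07) and Hjv, the hemojuvelin gene, by -0.55 (SE 0.07). Tgfbr2, the type II receptor for TGF-beta, changed by -0.62 (SE 0.08).

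Several homeobox, basic helix-loop-helix and zinc-finger factor genes were higher in treated cells. Dlx2, a distal-less homeobox factor, read 11.84, 11.83 and 11.57 treated, against 9.33, 9.25 and 9.36 untreated. Its neighbour Dlx1 rose by 1.43 (SE 0.07), and the antisense gene Dlx1as beside them by 0.97. Array rows may not separate overlapping transcripts fully. Dlx3 and Dlx5 rose by 1.00 and 1.19. Msx2, a muscle segment homeobox repressor, read 9.62, 9.92 and 9.83 treated, against 7.86, 7.73 and 7.64 untreated, and Msx1 rose by 0.52. Atoh8 (a basic helix-loop-helix factor), Gata3 and Snai2 (zinc-finger factors) rose by 1.59, 1.10 and 1.17.

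Forkhead genes that lie near one another were higher on chromosome 13 and, in part, on chromosome 8. On chromosome 13 Foxq1, Foxf2 and Foxc1 were higher by 1.91 (SE 0.08), 1.29 (SE 0.12) and 0.62 (SE 0.08). The tested gene between Foxq1 and Foxf2, not a forkhead gene, was also higher, by 0.75 (limma adjusted p = 0.000378). On chromosome 8 Foxc2 and Foxl1 were higher by 1.55 (SE 0.08) and 1.24 (SE 0.08). Foxf1 and Mthfsd, which lie next to them, did not pass the test, with changes of -0.08 (adjusted p = 0.834) and -0.17 (adjusted p = 0.121). Of 48 measured Fox, Sox, Tbx and Klf genes 11 were higher and 8 lower. Sox9, a cartilage regulator, rose by 0.63, whereas its relative Sox8 read 9.40, 9.48 and 9.24 treated, against 11.08, 10.94 and 11.03 untreated.

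Hox genes rose at one end of 2 clusters. Of 37 measured Hox genes 13 were higher and 0 lower in limma (16 and 0 at an unadjusted p under 0.05), with a median change of 0.171. All 4 measured Hoxa genes with paralogue numbers from 9 to 13 were higher, with a median of 0.89, and so were all 5 such Hoxc genes, with a median of 0.71. Hoxc13 read 10.55, 10.57 and 10.24 treated, against 9.47, 9.29 and 9.37 untreated, and Hoxa10 read 9.11, 9.11 and 9.04, against 8.12, 8.27 and 8.21. Among the lower-numbered genes 2 of 6 Hoxa and 2 of 4 Hoxc genes were called, with medians of 0.18 and 0.29. None of 9 Hoxb and 9 Hoxd genes was called by limma, and 0 of either had an unadjusted p under 0.05. Their mean levels were low, between 5.81 (Hoxd4, untreated) and 7.86 (Hoxb3, treated), so changes in them may be understated. The Hoxa and Hoxc genes numbered 9 to 13 had mean levels between 7.99 (Hoxa11, untreated) and 10.83 (Hoxc12, treated). Hox proteins set position along the body axis and, in the limb, along its length.

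**Figure D3:**
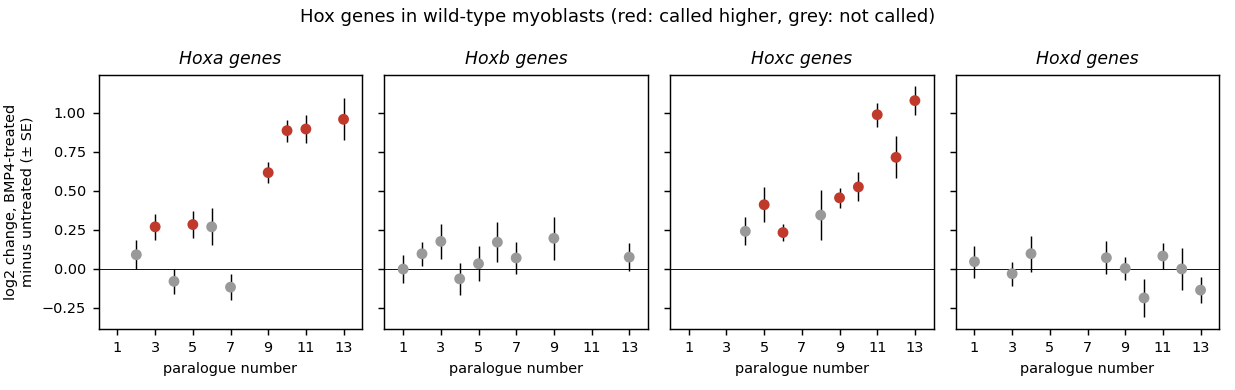
Log2 change (treated minus untreated, points) with its SE (bars) for the 37 measured Hox genes, by cluster and paralogue number; red points are called higher. Hoxa13 and Hoxc13 reach 0.96 and 1.08, while the Hoxb and Hoxd genes, with mean levels of at most 7.86, stay near 0.

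Of 19 osteoblast genes 5 were higher and 0 lower in limma (6 and 2 at an unadjusted p under 0.05, 5 and 1 without the array set, 8 and 1 where it was a block in the fit). Sp7, the zinc-finger factor osterix that commits cells to bone, read 11.32, 11.15 and 10.87 treated, against 7.64, 7.71 and 7.78 untreated. It was the largest rise of all genes, 10.6-fold on the linear scale. Alpl, the bone alkaline phosphatase, read 10.69, 10.57 and 10.36 treated, against 8.46, 8.17 and 8.59 untreated. Kazald1, a secreted protein of bone matrix, rose by 1.77 and Ank, a pyrophosphate transporter that restrains mineral, by 0.85. The 7 measured markers of mature osteoblasts and osteocytes had 0 calls in limma (0 higher and 2 lower at an unadjusted p under 0.05), with changes between -0.30 and 0.18. Without the array set 1 of these 7 was lower, and the 0 calls of 7 stand beside a share of 11.0% of all genes. Of 25 chondrocyte genes 6 were higher and 1 lower, among them Col10a1, the collagen of hypertrophic cartilage (0.83, SE 0.12). Ptch1, the hedgehog receptor and target, rose by 1.03.

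Other signalling pathways changed in their receptors and modulators. Of 58 Wnt pathway genes 21 were higher and 9 lower. The R-spondin receptors split: Lgr6 read 9.73, 9.68 and 9.57 treated, against 8.18, 7.85 and 7.97 untreated, and Lgr4 12.36, 12.48 and 12.39, against 11.01, 10.89 and 11.11. The third, Lgr5, went the other way, at 8.27, 8.17 and 7.88 treated against 9.14, 8.90 and 9.05 untreated. The R-spondin gene Rspo3 rose by 1.42, the Wnt ligand Wnt2 by 1.12, the Wnt effector Lef1 by 1.14 and the Dishevelled inhibitor Nkd2 by 1.49. Of 29 Notch pathway genes 5 were higher and 7 lower. The ligand Jag1, the target repressors Hey1 and Hes1 and the receptor-modifying enzyme Lfng rose by 0.75, 1.26, 0.35 and 1.37. The receptors Notch1 and Notch3, the ligand Dll1, the target Heyl and the ubiquitin ligase Dtx4 changed by -0.58, -0.86, -0.54, -0.86 and -1.36.

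Of 36 genes of the FGF family and its feedback 8 were higher and 7 lower. Receptors moved apart: Fgfr2 read 9.25, 8.95 and 9.22 treated, against 7.62, 7.57 and 7.33 untreated, whereas Fgfr4, typical of muscle precursors, read 9.59, 9.55 and 9.45, against 10.93, 10.65 and 10.87. Fgf7, a ligand of Fgfr2, rose by 0.70, and the FGF inhibitor Spry1 fell by 0.89. Among 26 TGF-beta target genes 14 were higher and 4 lower, led after Smad7 by Ccn2, a matricellular growth factor (1.30, SE 0.09), and including Tgfbi (0.81) and Tgfb1 (0.52). Smad7 and Skil count on this list as well as among the Smads.

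Of 25 genes of prostaglandin enzymes and receptors 6 were higher and 1 lower, with a median change of 0.006. Ptgs2, the inducible cyclooxygenase, read 12.70, 12.79 and 12.67 treated, against 10.37, 10.21 and 10.44 untreated (2.38, SE 0.08). Pla2g4a, the phospholipase that frees its substrate, rose by 0.82 and Ptger4, a prostaglandin E2 receptor, by 1.36. Hpgd, which inactivates prostaglandins, also rose, by 0.61 (SE 0.08).

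Of 28 RGS and small G-protein regulators 5 were higher and 4 lower, with a median of -0.004. Rgs4, which shortens signals of Gq- and Gi-coupled receptors, read 9.09, 8.95 and 8.89 treated, against 6.31, 6.58 and 6.50 untreated, while its relative Rgs16 fell to 9.62, 9.54 and 9.66, against 11.01, 11.09 and 10.92 untreated. The vasopressin receptor Avpr1a read 9.61, 9.52 and 9.84 treated, against 7.46, 7.79 and 7.70 untreated. Receptor genes that fell included Vipr2 (a VIP receptor, -1.47), Bdkrb1 (a bradykinin receptor, -1.39) and Ramp2 (a partner of the calcitonin receptor-like receptor, -1.32). Fabp7, a fatty acid binding protein best known in brain, read 12.61, 12.66 and 12.63 treated, against 9.31, 9.39 and 9.64 untreated, 9.08-fold higher.

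Of 28 adipogenic and lipid-binding genes 7 were higher and 2 lower, including Lpl (lipoprotein lipase, 0.91) and Cebpa (0.57). Medag, named for its part in adipogenesis, had the largest fall of all, at 6.80, 6.93 and 6.88 treated against 9.04, 8.77 and 8.97 untreated (-2.05, SE 0.12). Dynap, Serpinb8 and Lxn, a carboxypeptidase inhibitor, were other large rises (1.92, 1.76 and 1.54).

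**Figure D4:**
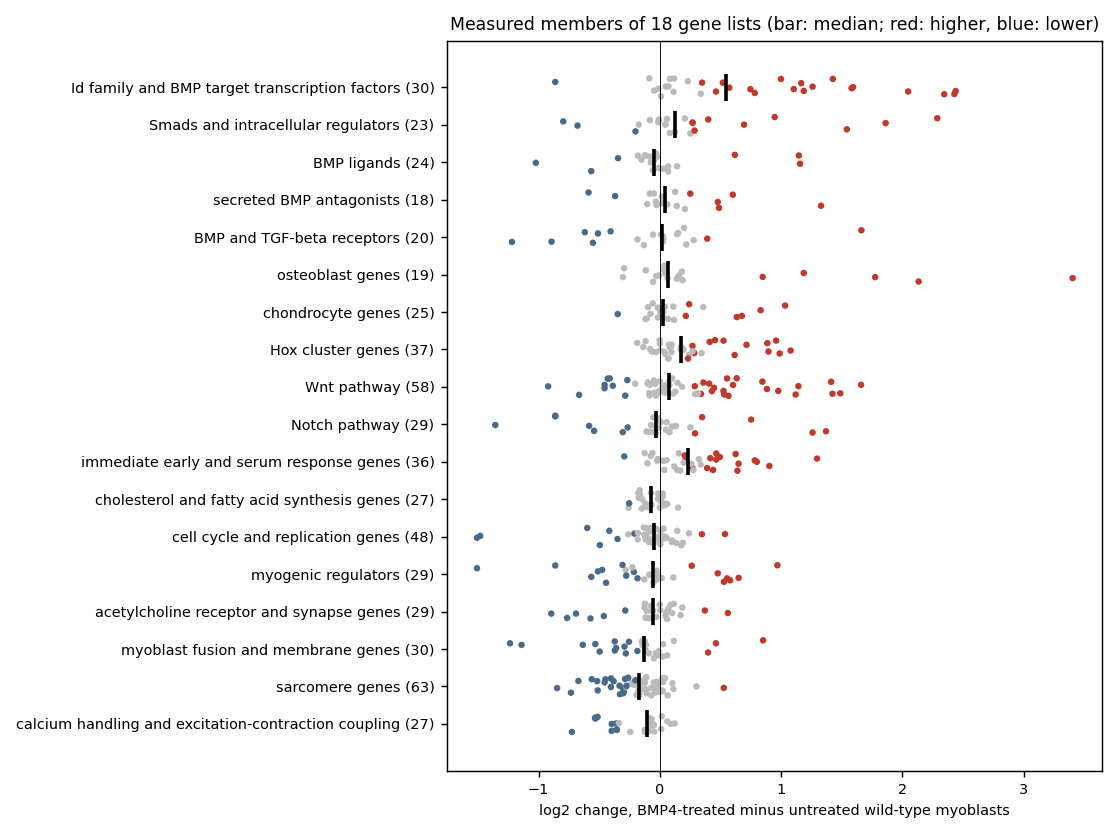
Each point is the log2 change (treated minus untreated) of 1 measured member of 18 gene lists, with the number of members in brackets, the median as a bar and called members in red (higher) or blue (lower). The Id and BMP target list has a median of 0.546 and the sarcomere list one of -0.171.

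Matrix and guidance genes changed in both directions. Of 39 proteases and inhibitors 11 were higher and 8 lower. Timp3, a matrix-bound protease inhibitor, rose by 1.33 (SE 0.10) and the protease gene Mmp11 by 0.81. Adamts5, an aggrecanase, read 9.74, 9.85 and 9.80 treated, against 11.48, 11.42 and 11.53 untreated. Chst15, which sulfates chondroitin chains, was lower with hardly any spread, at 9.21, 9.26 and 9.25 treated against 10.90, 10.89 and 10.92 untreated. Of 48 proteoglycans and glycoproteins 11 were higher and 6 lower, and 7 were higher without the array set. Fmod (fibromodulin, which binds collagen fibrils), Has2 (hyaluronan synthase) and Tnc (tenascin) rose by 1.51, 0.88 and 0.80. Of 32 integrins and laminins 2 were higher (1 without the array set) and 9 lower, among them Itga3 (-0.87), Lama5 (-0.57) and the muscle laminin receptor Itga7 (-0.53). Of 61 axon guidance genes 16 were higher and 11 lower. Unc5b, a netrin receptor, read 12.23, 12.29 and 12.01 treated, against 10.46, 9.99 and 10.49 untreated, and the semaphorins Sema6d and Sema6a changed in opposite directions, by 1.53 and -1.39.

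Genes of the sarcomere, of calcium handling and of fusion were lower in most cases where they passed the test. Of 63 sarcomere genes 21 were lower and 1 higher (15 lower without the array set), with a median of -0.171 against -8e-04 over all genes. Examples were Tmod1, which caps thin filaments (-0.85, SE 0.10), Ankrd2 (-0.73), Mybph, a myosin-binding protein (-0.67), and the Z-disc actinins Actn3 (-0.52) and Actn2 (-0.51). The 1 rise was Nebl (0.53). Of 27 genes of calcium handling 9 were lower and 0 higher in limma (11 and 0 at an unadjusted p under 0.05), among them Mrln, a peptide that restrains the calcium pump (-0.73), and Atp2a1, the fast-fibre calcium pump (-0.53).

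Of 30 fusion and membrane genes 12 were lower and 3 higher. Mymx (myomixer), which completes the joining of membranes, read 8.62, 8.50 and 8.55 treated, against 9.98, 9.67 and 9.73 untreated. Its partner Mymk (myomaker) moved less, at 13.17, 13.21 and 13.19 treated against 13.43, 13.55 and 13.45 untreated. Cdh15, the muscle cadherin, read 11.39, 11.39 and 11.42 treated, against 12.57, 12.52 and 12.52 untreated. In each of these 3 genes all treated arrays lay below all untreated arrays. The groups did not overlap, in either direction, for 23.3% of all genes.

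Myogenic regulators split, 7 higher and 10 lower of 29. Myf5, an early determination factor, read 11.51, 11.44 and 11.21 treated, against 10.48, 10.32 and 10.46 untreated. Myog (myogenin), which drives differentiation, read 11.41, 11.52 and 11.58 treated, against 11.91, 12.03 and 11.91 untreated, and Myod1 changed by -0.21 (SE 0.05). With the 6 arrays alone in the fit Myod1 missed the threshold (adjusted p = 0.0756). Myf6 and Pax3 rose by 0.58 and 0.53, and Mef2a changed by -0.51. Pax7, the satellite cell factor, read 7.35, 7.33 and 7.30 treated and 7.30, 7.30 and 7.45 untreated, and the groups overlapped.

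Acetylcholine receptor subunits, which pass the nerve's signal, were lower where they passed the test. Chrnd read 10.30, 10.34 and 10.31 treated, against 11.25, 11.19 and 11.19 untreated. The neighbouring gene Chrng, of the embryonic subunit, read 10.79, 10.77 and 10.78, against 11.55, 11.57 and 11.51. Chrnb1 changed by -0.46 (SE 0.05), whereas Chrna1 (-0.11, adjusted p = 0.532) did not pass and its groups overlapped. Lrp4, the agrin receptor that partners MuSK, and Erbb3, a neuregulin receptor, changed by -0.29 and -0.69, while Musk was 0.56 higher. Of 29 genes on the list 6 were lower and 2 higher.

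The imprinted genes Mest and Cdkn1c were among the large falls. Mest read 11.44, 11.36 and 11.60 treated, against 13.15, 13.29 and 13.14 untreated. Cdkn1c, which encodes the cell cycle inhibitor p57, read 8.42, 8.28 and 8.31 treated, against 9.77, 10.05 and 9.71 untreated. Of 25 genes of IGF and insulin signalling 3 were higher and 6 lower. Igf1 changed by -0.71 and Igfbp4 by 0.65. Igfbp5 changed by -0.33, a limma call lost without treated replicate 3 (adjusted p = 0.0639) and with the 6 arrays alone in the fit (adjusted p = 0.0595). Other large falls were Lrig1, a brake on growth factor receptors (-1.76, SE 0.08), Bnc2, a zinc-finger protein (-1.74, SE 0.11), Slc40a1, the iron exporter (-1.53, SE 0.11), and E2f2 (-1.48, SE 0.11).

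Lists that bear on serum and on cell division were read beside these. Of 36 immediate early and serum response genes 16 were higher and 1 lower (16 and 0 without the array set), with a median of 0.235, including Junb (0.80), Ier3 (0.90) and Egr2 (0.64). Of 48 cell cycle and replication genes 2 were higher and 7 lower (18.8% called), with a median of -0.048. Of all genes 5.21% were higher and 5.76% lower. Rrm2, a ribonucleotide reductase subunit, rose by 0.54 and E2f8 changed by -0.60. Of 27 cholesterol and fatty acid synthesis genes only Msmo1 was called (-0.25), a share of 3.7% against 11.0% of all genes. Of 33 interferon-stimulated genes 2 were higher and 3 lower (1 and 4 without the array set), a share of 15.2% against 11.0% of all genes. Of 24 muscle atrophy and Foxo target genes 8 were lower and 2 higher, and 4 were lower without the array set; Fbxo32, a ubiquitin ligase of wasting muscle, changed by -0.49. The part of serum withdrawal in these values was not tested.

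Among 287 rows assigned to microRNA genes 6 were higher and 7 lower, a share of 4.53% called against 11.0% of all genes. MicroRNAs silence messages that match their seed, bases 2 to 8 of the mature strand, which is set in capitals below. A row does not tell precursor from mature RNA or one arm from the other; the mature strand of 1 arm is printed for 6 of the called genes, to show which of these 6 strands share a seed, and only the miR-181 pair among them does. Sequences are from RefSeq (GRCm38.p6).
miR-206-3p: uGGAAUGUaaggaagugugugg
miR-23a-3p: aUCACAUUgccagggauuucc
miR-27a-3p: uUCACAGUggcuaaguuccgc
miR-24-3p: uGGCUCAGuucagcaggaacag
miR-181a-5p: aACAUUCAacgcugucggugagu
miR-181b-5p: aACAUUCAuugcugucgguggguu

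Mir206, a muscle microRNA gene, read 7.42, 7.68 and 7.29 treated, against 8.48, 8.03 and 8.22 untreated (-0.78, SE 0.15). The 3 genes of the Mir23a cluster on chromosome 8 moved the same way: Mir23a by 0.36 (SE 0.08), Mir27a by 0.51 (SE 0.11) and Mir24-2 by 0.27 (SE 0.07, adjusted p = 0.0187). The call of Mir24-2 was lost without untreated replicate 1 (adjusted p = 0.122), untreated replicate 3 (adjusted p = 0.0597) or treated replicate 2 (adjusted p = 0.0893). Mir181b-1 rose by 0.68 (SE 0.07). Its neighbour Mir181a-1 was dim, with both group means under 6, and had overlapping groups and a change of 0.50 (adjusted p = 0.0427). Leaving out single arrays lost that call in 4 of 6 cases, with adjusted p up to 0.228. With the 6 arrays alone in the limma fit Mir24-2 (adjusted p = 0.0747) and Mir181a-1 (adjusted p = 0.084) also missed the threshold.

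The response was then set against that of MuSK-null myoblasts, with no array shared between them. The difference of responses was called for 477 genes (2.39%), 244 higher and 233 lower in wild-type myoblasts. Avpr1a rose by 2.00 in wild-type cells and 0.47 in MuSK-null cells, a difference of 1.54 (adjusted p = 1.67e-06). Of the Id genes, Id1, Id2 and Id3 had larger rises in the wild type, by 1.45 (adjusted p = 1.06e-08), 0.87 (adjusted p = 4.48e-05) and 1.60 (adjusted p = 5.08e-08), and Id4 did not pass this test (0.14, adjusted p = 0.865). Noggin rose by 1.33 in wild-type cells, against 0.31 in MuSK-null cells (difference 1.02), and Rgma changed by -1.22, against -0.13 (difference -1.09). Lgr4, Timp3 and Myf5 also had larger rises in the wild type, with differences of 1.11, 0.98 and 0.94; Myf5 changed by 0.03 in MuSK-null cells. Has2 and Cxcr4, a chemokine receptor, had responses of 0.88 and 0.66 in wild-type cells against -0.13 and -0.42 in MuSK-null cells. Some falls were smaller in the wild type: Chrnd changed by -0.90, against -1.92 in MuSK-null cells, Hjv by -0.55, against -1.18, Igfbp5 by -0.33, against -1.51, and Mir206 by -0.78, against -1.82. Others were larger: Sox8 changed by -1.64, against -0.45, E2f2 by -1.48, against -0.37, and Medag by -2.05, against -0.75. Tgm2, a transglutaminase, read 8.09, 8.08 and 8.05 in treated wild-type myoblasts, against 9.70, 9.48 and 9.49 in untreated ones, a fall by 1.48, while its change in MuSK-null myoblasts was 0.19. Hpgd, Rgs4, Sp7 and Ptgs2 had differences of 2.35, 1.88, 1.67 and 1.63. The difference of Hpgd exceeded its rise in wild-type myoblasts, so its change in MuSK-null cells was negative.

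Against wild-type myotubes the difference of responses was called for 682 genes (3.42%), 300 higher and 382 lower in myoblasts. Temperature, medium and serum deprivation differ between these stages together with differentiation and cannot be told apart. Both differences use the same 6 wild-type myoblast arrays. The homeobox gene Msx2 rose by 2.05 in myoblasts, against 0.15 in myotubes, and the forkhead gene Foxq1 by 1.91, against 0.17. Bmp2 rose by 1.15 in myoblasts, against -0.04 in myotubes (difference 1.19, adjusted p = 0.00476). Fgfr2 and Lgr6 rose by 1.63 and 1.66 in myoblasts, against 0.58 and 0.65 in myotubes. Ptgs2, Avpr1a and Lgr4 had differences of 1.26, 1.22 and 0.98. Cdkn1c fell by 1.51 in myoblasts and changed by -0.07 in myotubes, and Slc40a1 changed by -1.53, against -0.47. Adamts5 and Sox8 fell further in myoblasts as well, with differences of -1.02 and -0.98. Tgm2 changed by -1.48 in myoblasts, against 0.56 in myotubes. Fabp7 and Cxcr4 rose less in myoblasts, by 3.18 against 4.32 and by 0.66 against 2.12 in myotubes. Every called difference named in this paragraph and the one before kept its call when each array was left out in turn. They are a part of 175 called differences of the genes named in the text. Over all 175, leaving out single arrays kept the call in 1874 runs and lost it in 226. Lost calls included Smad7 and Dlx2 against MuSK-null myoblasts, and Id1 and Id3 against myotubes. With only the compared groups in the fit 30 calls were lost, with a replicate block 28 and without the array set 26.

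**Figure D5:**
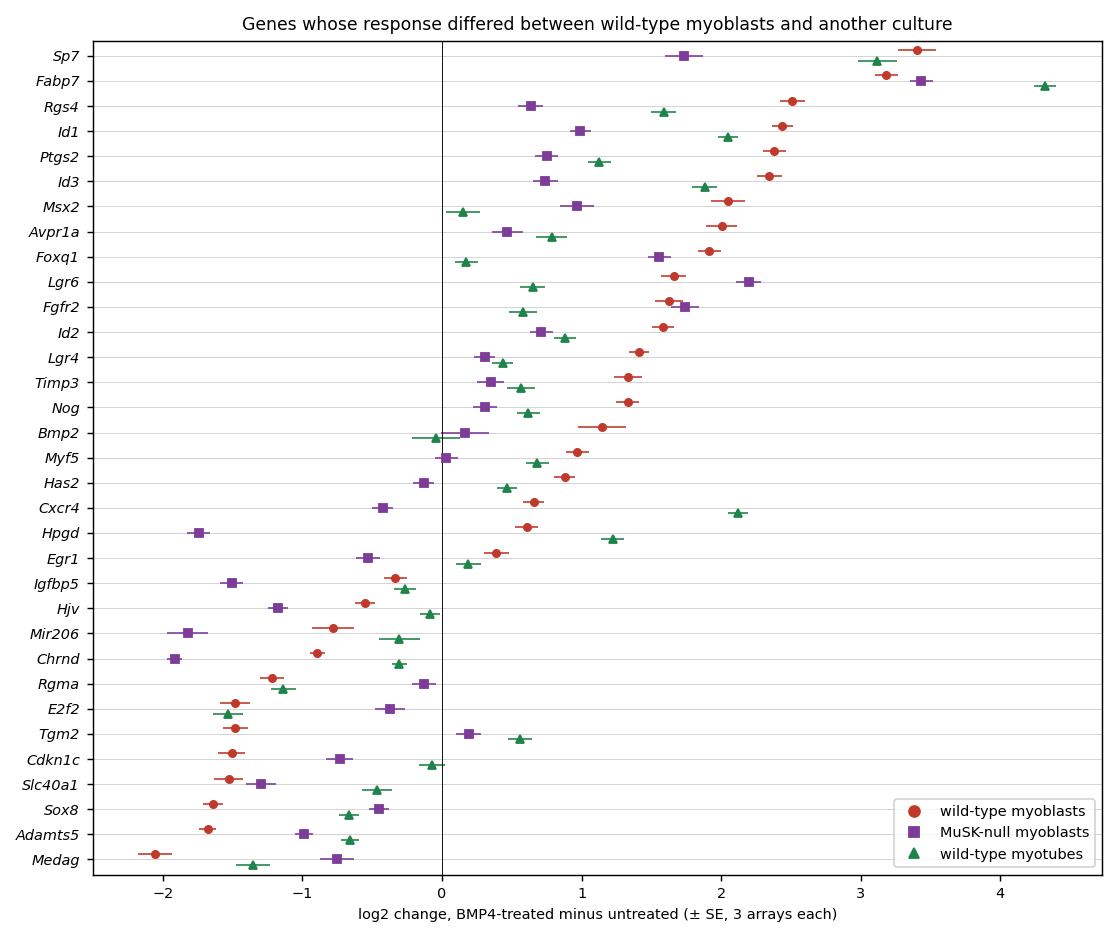
Log2 change after BMP4 (points) with its SE (bars) in wild-type myoblasts, MuSK-null myoblasts and wild-type myotubes, for genes whose response in wild-type myoblasts differed from one of the others. Tgm2 lies at -1.48 in wild-type myoblasts, 0.19 in MuSK-null myoblasts and 0.56 in wild-type myotubes.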

How the data were processed

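24 RNA samples were measured on Affymetrix whole-transcript arrays, 1 array each; the response uses 6 of them. The deposited values are log2 probe set signals, a scale read from the values. Per the submitters' processing notes the tools included Affymetrix Expression Console and Partek, with no versions or roles. Background correction, summarisation and normalization were steps not given in the sources used here. Of 35556 rows 21789 carry 1 gene (21698 matched to RefSeq GRCm38.p6 by gene ID); the row with the highest mean was kept for 999 genes with several, leaving 19938. Rows with several genes or none were left out of the gene tests.

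In limma 3.58.1 a model with a mean for each group was fitted over the 24 arrays (R 4.3.3, 16 residual degrees of freedom). P-values were Benjamini-Hochberg adjusted over 19938 genes, called under 0.05, and differences of responses were interaction contrasts. Simulated data were used to check the test. The number of arrays limits precision. The members and the 39 gene lists and 7 marker lists were chosen with earlier results of these data known. The genes named are a subset, picked with values known, of those a rule allows: the 25 largest rises and falls, the 6 largest called members of each list in each direction, the 10 largest differences per direction and a fixed set; Dlx1, Dlx1as, Dlx3, Gata3, Snai2, Foxf1, Mthfsd, Mymk, Egr1 and the microRNA rows were chosen after their values were seen. Alternatives were other fits, scalings and filters, a replicate block, a fold minimum of 1.5 and leaving out arrays.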

Additional observations from a re-analysis of the deposited data

Results flagged for a closer look

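The BMP4 response of wild-type myoblasts differed from that of MuSK-null myoblasts for 477 genes, by interaction contrasts in limma. The differences below are log2 changes in wild-type myoblasts minus those in MuSK-null myoblasts, 3 arrays a group. Larger responses in wild-type cells, or responses with opposite signs, gave positive differences for Hpgd (2.35), Rgs4 (1.88), Sp7 (1.67), Ptgs2 (1.63), Id3 (1.60), Avpr1a (1.54) and Id1 (1.45). Lgr4 (1.11), Cxcr4 (1.08), Nog (1.02), Has2 (1.01), Timp3 (0.98), Myf5 (0.94), Egr1 (0.92) and Id2 (0.87) followed. Among these Hpgd, Cxcr4, Has2 and Egr1 rose in wild-type cells and had a negative change in MuSK-null cells. Smaller falls in wild-type cells gave positive differences for Igfbp5 (1.17), Mir206 (1.04), Chrnd (1.02) and Hjv (0.62). Larger falls gave negative ones for Tgm2 (-1.67), Medag (-1.30), Sox8 (-1.19), E2f2 (-1.11) and Rgma (-1.09), Tgm2 with a change of 0.19 in MuSK-null cells.

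It differed from the response of wild-type myotubes for 682 genes. The differences were positive for Msx2 (1.90), Foxq1 (1.74), Ptgs2 (1.26), Avpr1a (1.22), Bmp2 (1.19), Fgfr2 (1.05), Lgr6 (1.01) and Lgr4 (0.98). They were negative for Tgm2 (-2.04), Cxcr4 (-1.46), Cdkn1c (-1.44), Fabp7 (-1.14), Slc40a1 (-1.06), Adamts5 (-1.02) and Sox8 (-0.98). Both sets of differences share the wild-type myoblast arrays.

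Rows outside the gene tests also changed after BMP4. Of 1621 rows assigned to several genes 44 were called (2.71%), 23 higher and 21 lower. Of 12146 rows without a gene name 154 were called (1.27%), 82 higher and 72 lower.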

How the results depend on the processing

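The 2186 calls became 552 when only changes of at least 1.5-fold were kept (278 higher, 274 lower), and the differences from MuSK-null myoblasts and from wild-type myotubes 236 and 280. With the array set as a block the calls were 2768 for the response and 745 and 1028 for the differences. Without the array set 1923, 352 and 681 calls were made. Both of these alternatives were added after seeing the data. With only the compared groups in the fit the calls were 1580, 353 and 536. With the block 5 cell cycle genes were higher and 5 interferon-stimulated genes lower. With the 6 arrays alone in the fit 4 myogenic regulators were higher, and 2 TGF-beta target genes, 4 Fox, Sox, Tbx and Klf genes, 7 axon guidance genes, 5 proteases and inhibitors and 5 atrophy genes were lower. Leaving out each array in turn gave 1808 to 1956 calls for the response, 371 to 449 for the difference from MuSK-null myoblasts and 536 to 640 for that from myotubes. Replicate numbers did not pair the wild-type myoblasts (correlations of same-numbered deviations 0.26, -0.36 and -0.31), and with a replicate block 1957, 359 and 549 genes were called. The 3 arrays a group and the missing detection calls limit what can be said of dim genes. No named gene's response changed sign where it was called in the main fit or in the alternative. Small changes that were called in neither, such as that of Bmpr1a, could change sign.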

Other observations

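Chemokine and matrix genes outside the groups above also changed in treated wild-type myoblasts. Of 44 chemokines, cytokines and receptors 6 were higher and 7 lower (4 lower without the array set). The chemokine Cxcl14 rose by 0.86 (SE 0.08) and Ackr3, a scavenging chemokine receptor, by 0.67 (SE 0.14), while Ccl2, which attracts monocytes, changed by -0.77 (SE 0.09). Of 35 collagen genes 2 were higher and 5 lower (5 higher with the array set as a block), with Col12a1 at 0.61 (SE 0.06) and Col6a3 at -0.39 (SE 0.05). The ephrin receptor Epha7 rose by 0.68. The small GTPases Rasl11a and Rhou rose by 1.05 and 0.67.

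Clcn5, a chloride-proton exchanger gene on the X chromosome, read 10.81, 10.85 and 11.03 on treated arrays and 11.69, 11.83 and 11.74 on untreated arrays. The rows of 2 microRNA genes inside it were also lower, Mir532 by -0.51 (SE 0.11) and Mir362 by -0.60 (SE 0.15). Mir500, Mir501 and Mir188 lie there too and did not pass the test (-0.15, -0.17 and -0.05). The call of Mir362 was lost without untreated replicate 1 (adjusted p = 0.0882) or treated replicate 3 (adjusted p = 0.0827). Egr1, an immediate early factor, changed by 0.39 in wild-type myoblasts and by -0.53 in MuSK-null myoblasts (difference 0.92, limma adjusted p = 7.85e-05).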
